A study of Mus musculus with 6 samples.

Results

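Hox genes encode homeodomain transcription factors that give cells along the body axis their regional identity. In the mouse they lie in 4 clusters, HoxA on chromosome 6, HoxB on chromosome 11, HoxC on chromosome 15 and HoxD on chromosome 2, and genes of like position in the clusters share a paralog number from 1 to 13. Low numbers are used towards the head and high numbers towards the tail, limbs and genitalia, and fibroblasts taken into culture are known to keep much of the pattern of their site of origin. The lung bud arises from the foregut, where the low and middle numbers are used, and Hoxa5 in the lung mesenchyme is required for normal lung and airway development in mice. Here the Hox genes were all probe sets with a single gene symbol made of Hox, a cluster letter and a paralog number, with the probe set of highest mean over 6 arrays for each gene. This gave 36 of the 22180 genes measured, with 9 HoxA, 10 HoxB, 9 HoxC and 8 HoxD genes. 3 of the 39 Hox genes in the RefSeq table are not analysed here.

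The cells were primary fibroblasts from the lungs of adult mice of mixed strain. One group was 3 wells given 4-hydroxytamoxifen (4OHT, the active metabolite of tamoxifen) at 1 µg/ml for 48 h, and the other was 3 wells given vehicle for 48 h. Cells of both groups carried UBCCreERT2, a tamoxifen-inducible Cre recombinase under the broadly active ubiquitin C promoter, and R26RSmoM2, a Cre-dependent allele of constitutively active Smoothened, the protein that switches on hedgehog signalling. Exposure to 4OHT, Cre activity and SmoM2 therefore differ together between the groups and cannot be told apart. The wells were split from isolated cells and bear 1 genotype number, and nothing in the labels says that they came from separate animals, so p-values cover the variation among wells alone, possibly technical.

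RMA log2 expression per probe set was compared, with a precision limited by having 3 arrays a group. Pearson's r between arrays over all genes, which are not independent replicates, lay between 0.995 and 0.998. The hedgehog target Gli1 was at 6.74, 6.76 and 6.94 in 4OHT wells, against 6.47, 6.49 and 6.43 in vehicle wells. Gli1 rose by 0.35 in log2 units (SE 0.064, adjusted p = 0.0167 by limma). Its vehicle wells were close to the background of 6.44 defined below. Neither Ptch1, the receptor gene, nor Hhip, the other hedgehog genes read, was called. Ptch1 changed by 0.08 (95% CI from -0.07 to 0.24, adjusted p = 0.485 by limma). Hhip, below the background, changed by 0.05 (95% CI from -0.20 to 0.31, adjusted p = 0.803 by limma). All 8 fibroblast markers lay far above the background defined below, at 9.73 to 14.28. All 4 mesothelial markers (10.57 to 12.89) and all 6 markers of smooth muscle and pericytes (8.81 to 13.62) were bright as well. Of the epithelial markers, Krt8 (9.97), Krt18 (9.18) and Cdh1 (7.18) lay above background and Epcam, Sftpc and Scgb1a1 below it. Of the leukocyte markers, Cd68 (8.95) and Csf1r (7.04) lay above it and Ptprc, Adgre1 and Cd3e below it, and of the endothelial markers 4 of 5 lay above it, with Emcn below. Every summed marker level differed between the groups without overlap, as did 32.7% of single genes. Each sum adds values off the log2 scale, so its brightest members weigh most and the other members can go the other way. For fibroblast markers the log2 sum lay between 15.97 and 16.00 in 4OHT wells and between 16.03 and 16.06 in vehicle wells, with Col3a1 lower and the other 7 not called. It lay between 14.51 and 14.58 in 4OHT wells and between 14.91 and 14.93 in vehicle wells for smooth muscle and pericyte markers, with 5 of 6 lower. For mesothelial markers it lay between 13.85 and 13.91 in 4OHT wells and between 14.04 and 14.06 in vehicle wells, with 1 of 4 higher and 2 lower. For 5 proliferation genes, all lower, it lay between 10.88 and 11.08 in 4OHT wells and between 12.21 and 12.23 in vehicle wells. Epithelial markers summed to between 10.78 and 10.84 in 4OHT wells and between 10.89 and 10.99 in vehicle wells, with 1 of 6 lower. Endothelial markers summed to between 9.25 and 9.29 in 4OHT wells and between 9.53 and 9.67 in vehicle wells, with 2 of 5 higher and 3 lower, and leukocyte markers to between 9.75 and 9.84 in 4OHT wells and between 9.49 and 9.60 in vehicle wells, with only Cd68 called, higher. The part of these shifts in the Hox values was not tested. In such bulk samples fewer cells of a type and less RNA per cell cannot be told apart.

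The first question was which Hox genes gave a signal in these cells. Probe sets differ in how well they bind, so the level of a gene was not ranked against that of another gene but read against a background. The background was the 95th percentile of the mean levels of 1389 olfactory, vomeronasal and trace amine receptor genes, which lung fibroblasts are not known to use, and lay at 6.44. This is not a detection call. 25 of the 36 Hox genes lay above it, namely 7 of 9 in HoxA, 9 of 10 in HoxB, 6 of 9 in HoxC and 3 of 8 in HoxD. Of all 22180 genes, 14465 lay above it. By paralog number, 6 of 7 genes numbered 1 to 3, 13 of 14 numbered 4 to 8 and 6 of 15 numbered 9 to 13 lay above it. The 99th percentile of the receptor genes lay at 7.48, with 11046 of all 22180 genes above it. This line left 14 Hox genes, which were Hoxa2 to Hoxa7, Hoxb2 to Hoxb7, Hoxb9 and Hoxc6. None of the 8 HoxD genes was among them, and Hoxb9 was the only one numbered above 7. Among the 15 genes numbered 9 to 13, 9 were at or under the 95th percentile on every array.

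**Figure D1:**
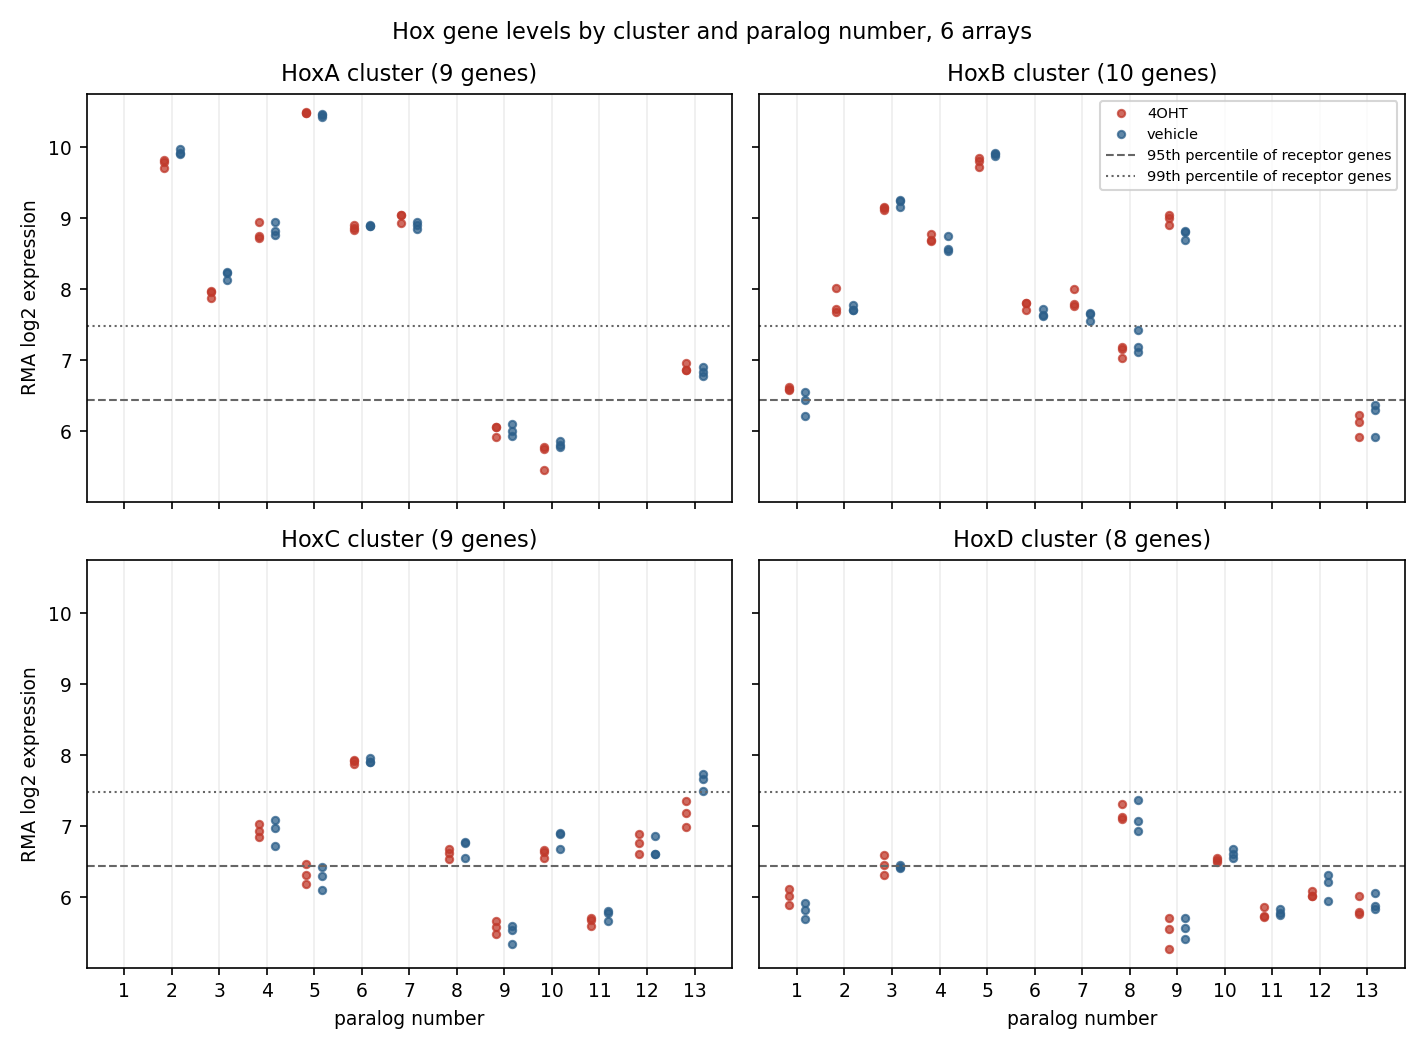
Levels of the 36 Hox genes (vertical axis, RMA log2 expression) by paralog number (horizontal axis) in the 4 clusters, with a point for each array of the 4OHT group (left of each tick) and the vehicle group (right). The lines mark the 95th and 99th percentiles of the receptor genes at 6.44 and 7.48; HoxA genes 2 to 7 and HoxB genes 2 to 7 stand above both in all 6 arrays, and HoxA genes 9 and 10 stand below both.

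The second question was which Hox genes differed between 4OHT and vehicle wells. 2 of the 36, Hoxa3 and Hoxc13, were lower in 4OHT wells at an adjusted p under 0.05 by limma over all genes, and none was higher. That is 5.56% of the Hox genes called, against 12.0% of all genes (higher 5.38%, lower 6.62%). At an unadjusted p under 0.05, 7 Hox genes differed, or 19.4%, against 26.4% of all genes. In 11 Hox genes, or 30.6%, the groups did not overlap (4 higher, 7 lower), against 32.7% of all genes (15.0% higher, 17.8% lower). Among the 25 above the receptor background 2 were called, and 17.1% of all genes above it were. The median log2 fold change was -0.01 over the Hox genes and -0.01 over all genes, and the median size of the change was 0.09 in both sets. For 35 of the 36 Hox genes the 95% interval of the change lay within 1.5-fold in either direction, the exception being Hoxc13, against 92.8% of all genes. RMA compresses changes of dim probe sets, so this bound says less of the 11 Hox genes below the background.

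**Figure D2:**
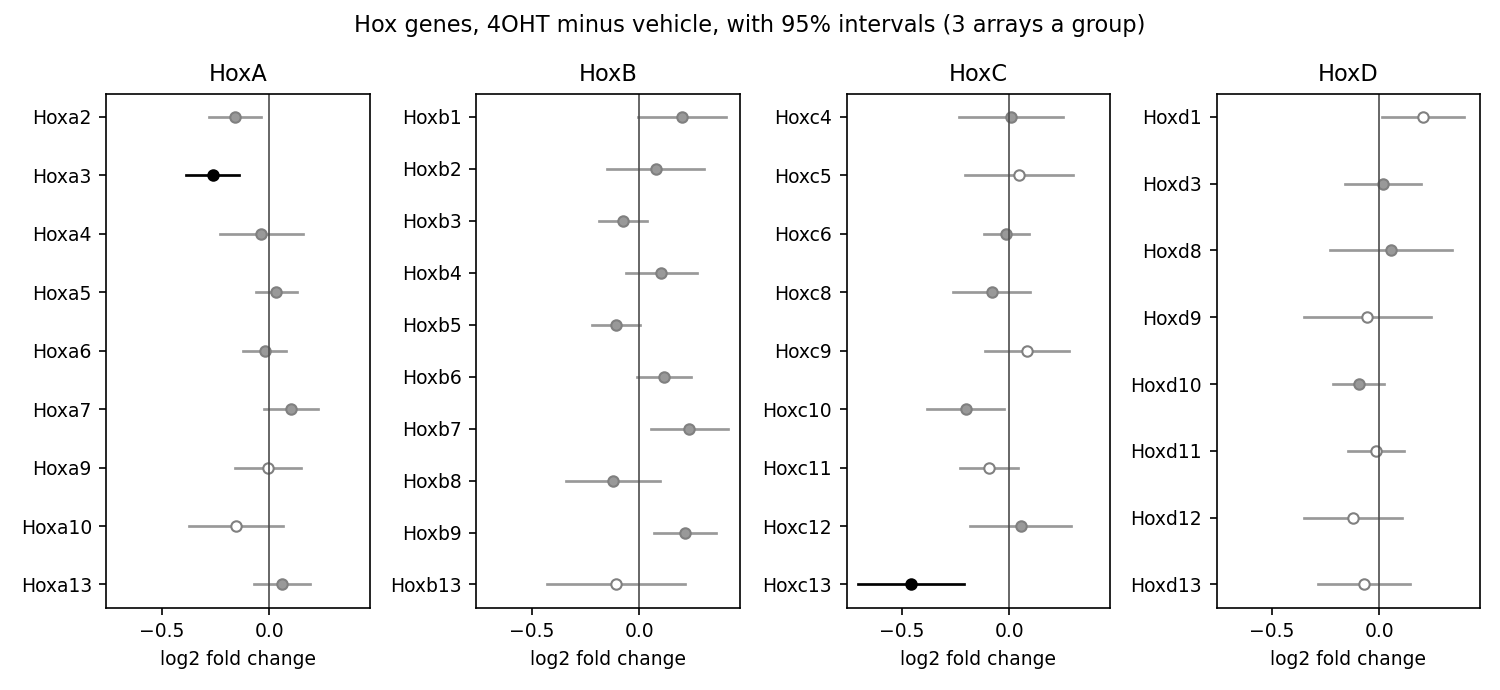
Log2 fold change, 4OHT minus vehicle, of the 36 Hox genes with 95% intervals from limma (3 arrays a group), in paralog order from top to bottom within each cluster. Black marks the 2 genes called, Hoxa3 at -0.26 and Hoxc13 at -0.45, grey the other genes above the 95th percentile of the receptor genes, and open circles the genes below it.

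Hoxa3, which in the embryo patterns the neck and its glands, was at 7.96, 7.88 and 7.97 in 4OHT wells and at 8.24, 8.23 and 8.13 in vehicle wells. All 3 4OHT wells were below all 3 vehicle wells. It dropped by 0.26 in log2 units (SE 0.052, 95% CI from -0.38 to -0.14, adjusted p = 0.0221 by limma), or 1.199-fold. The call was lost without 4OHT replicate 1 (adjusted p = 0.0636), 4OHT replicate 2 (0.0848), vehicle replicate 1 (0.0761) or vehicle replicate 2 (0.0833). Hoxa2, its neighbour in the cluster and a gene of the hindbrain and branchial arches, was at 9.82, 9.70 and 9.79 in 4OHT wells and at 9.90, 9.97 and 9.91 in vehicle wells. Its groups did not overlap either, and it had a log2 fold change of -0.16 (95% CI from -0.28 to -0.04, adjusted p = 0.0974) that did not pass. It passed with trended, robust variances (adjusted p = 0.0324) and among genes above the receptor background alone (0.0422).

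No other HoxA gene passed. Hoxa5 was at 10.49, 10.47 and 10.48 in 4OHT wells and at 10.43, 10.45 and 10.46 in vehicle wells. The groups did not overlap, but they lay only 0.03 apart on the log2 scale (95% CI from -0.06 to 0.13, adjusted p = 0.662). Hoxa6 was at 8.84, 8.86 and 8.91 in 4OHT wells and at 8.88, 8.90 and 8.89 in vehicle wells. Hoxa7 was at 8.93, 9.04 and 9.04 in 4OHT wells and at 8.95, 8.91 and 8.85 in vehicle wells. Both genes pattern the thoracic skeleton, and in both the groups overlapped, with log2 fold changes of -0.02 (95% CI from -0.12 to 0.08) and 0.10 (95% CI from -0.03 to 0.23). Hoxa4 had a log2 fold change of -0.04, and Hoxa9, Hoxa10 and Hoxa13, near or below the background, had -0.0046, -0.15 and 0.06.

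The start regions of Hoxa3, the HoxA gene that was called, and Hoxa5, the lung-patterning gene of the same cluster that was not, are shown; the difference between their changes was not tested. Each is 250 bases before to 50 after the start site on the minus strand, from RefSeq (GRCm38.p6), at chr6:52213018-52213317 for Hoxa3 and chr6:52204538-52204837 for Hoxa5. Capitals mark matches on either strand to the GLI motif TGGGTGGTC, the Hox-Pbx motif TGATNNAT or AGGTCA, the half-site of retinoid and other nuclear receptors. The motifs did not overlap each other in these windows.
Hoxa3: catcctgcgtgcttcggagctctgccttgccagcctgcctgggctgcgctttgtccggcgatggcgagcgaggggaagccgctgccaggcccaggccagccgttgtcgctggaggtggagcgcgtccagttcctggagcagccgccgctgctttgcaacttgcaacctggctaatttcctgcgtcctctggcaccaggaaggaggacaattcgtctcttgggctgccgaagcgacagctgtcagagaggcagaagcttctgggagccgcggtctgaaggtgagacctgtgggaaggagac
Hoxa5: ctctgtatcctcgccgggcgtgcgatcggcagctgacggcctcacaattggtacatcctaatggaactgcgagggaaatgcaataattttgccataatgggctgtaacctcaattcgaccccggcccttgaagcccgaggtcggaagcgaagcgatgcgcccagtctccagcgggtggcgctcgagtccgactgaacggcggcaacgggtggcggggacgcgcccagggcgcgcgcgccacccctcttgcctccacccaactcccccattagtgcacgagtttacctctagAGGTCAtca
The Hoxa5 window held 1 AGGTCA and the Hoxa3 window no match. Such windows were at hand for 22 Hox genes, 20 of them measured here, as 24 windows. AGGTCA stood in 7 of the 24, against 16.3% of all 32851 windows in the table, TGATNNAT in 4 (Hoxa2, Hoxb1, Hoxb8 and Hoxd11), against 8.85%, and TGGGTGGTC in none, against 0.253%. A match is only these letters in the window.

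In HoxB no gene was called, against 12.0% of all genes. 6 of the 10 had a log2 fold change above 0, as did 10778 of all 22180 genes. Hoxb5, which acts in the branching of the embryonic lung, was at 9.80, 9.73 and 9.84 in 4OHT wells and at 9.91, 9.88 and 9.91 in vehicle wells. Its groups did not overlap, at a log2 fold change of -0.11 (95% CI from -0.22 to 0.0045, adjusted p = 0.205). Hoxb5 was the only Hox gene with another probe set of its own, which read 8.09, 8.01 and 8.17 in 4OHT wells and 8.19, 8.05 and 8.15 in vehicle wells, with overlapping groups and a difference of -0.04. Hoxb3 was at 9.14, 9.12 and 9.16 in 4OHT wells and at 9.25, 9.25 and 9.16 in vehicle wells (log2 fold change -0.08, adjusted p = 0.355), and its groups met at one array each.

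In 3 of the 10 HoxB genes all 4OHT wells were above all vehicle wells, against 15.0% of all genes. In 1 of the 10, Hoxb5, all were below, against 17.8%. None of the 3 higher ones passed. Hoxb9, a gene of thoracic patterning, was at 8.90, 9.004 and 9.04 in 4OHT wells and at 8.68, 8.82 and 8.80 in vehicle wells. It had a log2 fold change of 0.21 (95% CI from 0.07 to 0.36, adjusted p = 0.0720). Hoxb7 was at 7.80, 7.996 and 7.76 in 4OHT wells and at 7.54, 7.66 and 7.65 in vehicle wells, with every 4OHT well again the higher (log2 fold change 0.23, 95% CI from 0.06 to 0.41, adjusted p = 0.0995). Hoxb9 passed with quantile normalization applied again (adjusted p = 0.0315), with a trended and robust estimate (0.0286) and among genes above the receptor background alone (0.0310), and Hoxb7 in the last of these (0.0484). These genes were singled out after their values were seen. Hoxb1, a hindbrain gene, was at 6.58, 6.62 and 6.59 in 4OHT wells and at 6.43, 6.55 and 6.21 in vehicle wells, close to the background at 6.44. It too had groups without overlap, at a log2 fold change of 0.20 (95% CI from -0.0083 to 0.40, adjusted p = 0.205). Hoxb2, Hoxb4 and Hoxb6 had log2 fold changes of 0.08, 0.10 and 0.11, and Hoxb8 and Hoxb13 of -0.12 and -0.11.

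**Figure D3:**
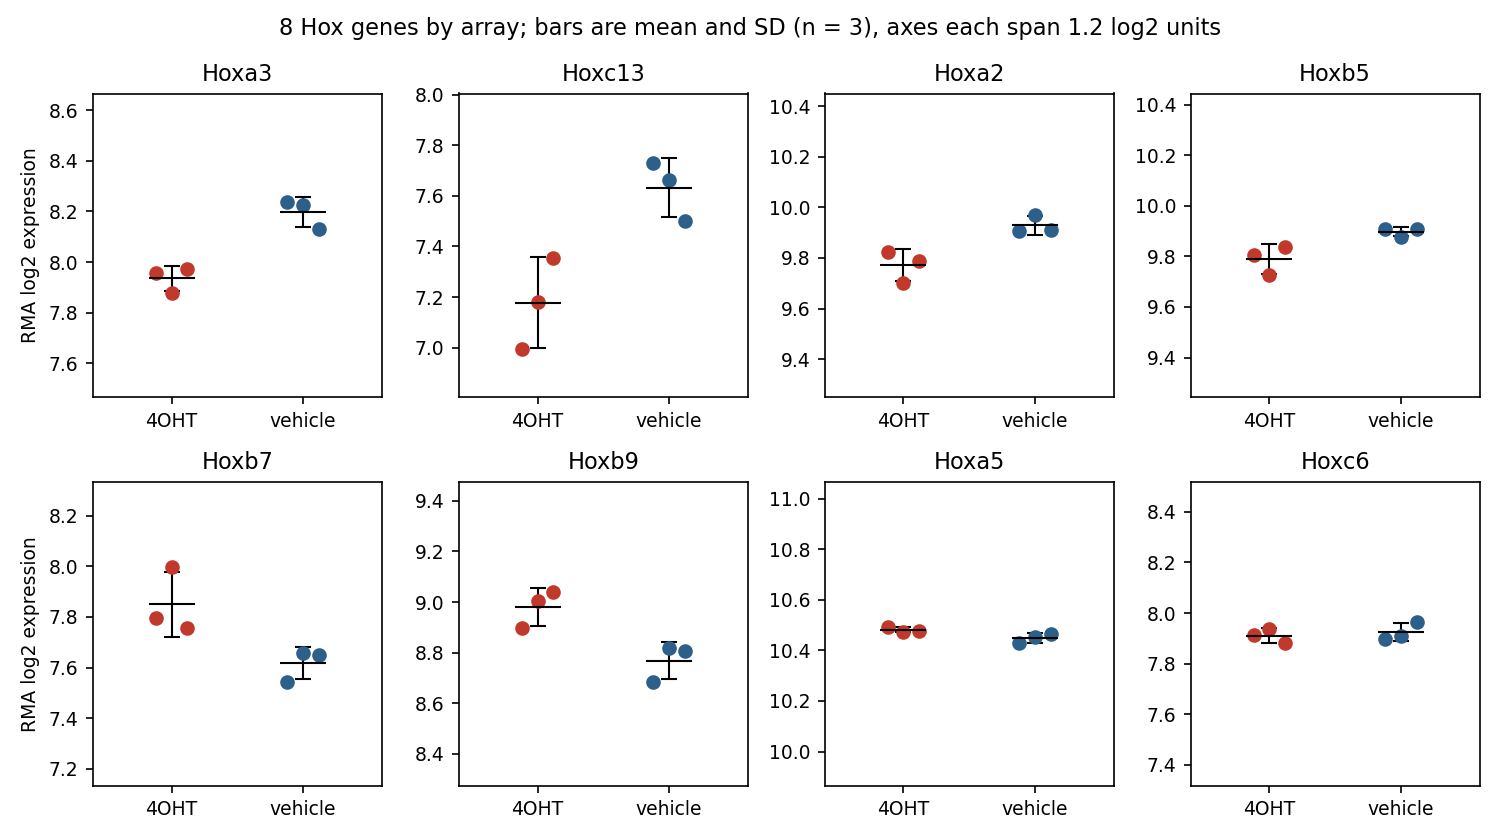
RMA log2 expression of 8 Hox genes by array (points) in 4OHT (left) and vehicle wells (right), with the mean and SD of 3 arrays; each axis spans the same number of log2 units. Hoxa3 and Hoxc13 are lower in all 3 4OHT wells, Hoxb7 and Hoxb9 are higher in all 3 but did not pass, and Hoxa5 and Hoxc6 differ by 0.03 and -0.01.

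Hoxc13, a gene of hair and nail formation, was at 6.995, 7.18 and 7.35 in 4OHT wells and at 7.73, 7.66 and 7.50 in vehicle wells. The groups did not overlap, and it dropped by 0.45 in log2 units (SE 0.103, 95% CI from -0.70 to -0.21, adjusted p = 0.0349 by limma), or 1.37-fold. The 4OHT wells lay below and the vehicle wells above the 99th percentile of the receptor genes at 7.48. The call was lost without 4OHT replicate 1 (adjusted p = 0.0819), 4OHT replicate 2 (0.106), vehicle replicate 1 (0.102) or vehicle replicate 2 (0.108). Its neighbours Hoxc12 and Hoxc11 had log2 fold changes of 0.05 and -0.09. Hoxc10, a gene of lumbar and hindlimb level, was at 6.65, 6.55 and 6.67 in 4OHT wells and at 6.89, 6.68 and 6.91 in vehicle wells, and did not pass (log2 fold change -0.20, 95% CI from -0.38 to -0.02, adjusted p = 0.143).

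Hoxc6, the HoxC gene that stood above both percentiles, was at 7.91, 7.94 and 7.88 in 4OHT wells and at 7.90, 7.91 and 7.96 in vehicle wells. The groups overlapped, at a log2 fold change of -0.01 (95% CI from -0.12 to 0.09). Hoxc4, Hoxc5, Hoxc8 and Hoxc9 had log2 fold changes of 0.01, 0.05, -0.08 and 0.08, none of which passed. In HoxD none of the 8 genes was called. The 5 numbered 9 to 13, which pattern the limbs and genitalia, had log2 fold changes between -0.12 and -0.02, and Hoxd1, Hoxd3 and Hoxd8 had 0.20, 0.02 and 0.05. Hoxd10 was at 6.50, 6.55 and 6.52 in 4OHT wells and at 6.55, 6.69 and 6.61 in vehicle wells, without overlap (adjusted p = 0.283). Over the 72 groups of 3 arrays of Hox genes the SD ranged from 0.0093 to 0.238, with a median of 0.0746.

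Other transcripts of the clusters were read next. Of 22 on a list of cluster RNAs with Evx1 and Evx2, homeobox genes at the ends of HoxA and HoxD, 9 were measured. None of the 9 was called by limma, against 12.0% of all genes. At an unadjusted p under 0.05 by limma 2 of the 9 differed, against 26.4% of all genes. 4 of the 9 lay above the background. Among them the antisense RNA Hoxaas3 was at 7.45, 7.44 and 7.44 in 4OHT wells and at 7.42, 7.53 and 7.48 in vehicle wells, and Evx2 at 7.19, 6.997 and 7.13 in 4OHT wells and at 7.10, 7.07 and 6.94 in vehicle wells. Both overlapped, with log2 fold changes of -0.03 and 0.07, and Hoxd3os1 had -0.01. Evx1 was at 6.81, 6.74 and 6.59 in 4OHT wells and at 6.67, 6.37 and 6.33 in vehicle wells (log2 fold change 0.26, adjusted p = 0.169), a difference that passed without vehicle replicate 1 (0.0484). The long noncoding RNA Hotair of HoxC averaged 5.81 ± 0.10 in 4OHT wells and 5.81 ± 0.20 in vehicle wells (SD, n = 3 each), below the background. The miR-10 and miR-196 microRNAs of the clusters are shown with their seeds, bases 2 to 8, in capitals. Of these, miR-196 is known to direct cleavage of the Hoxb8 transcript, and all of them lie between Hox genes.
mmu-miR-10a-5p: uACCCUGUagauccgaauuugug
mmu-miR-10b-5p: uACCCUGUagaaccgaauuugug
mmu-miR-196a-5p: uAGGUAGUuucauguuguuggg
mmu-miR-196b-5p: uAGGUAGUuuccuguuguuggg
These RefSeq sequences (GRCm38.p6) fall into pairs of shared seed whose members differ at 1 base each, and miR-196a is made from a gene in HoxB and another in HoxC. The HoxB gene, Mir196a-1, was at 5.25, 5.20 and 5.23 in 4OHT wells and at 4.96, 4.97 and 5.21 in vehicle wells (log2 fold change 0.18, adjusted p = 0.183; 0.0307 without vehicle replicate 3). The HoxC gene, Mir196a-2, averaged 4.49 ± 0.03 in 4OHT wells and 4.42 ± 0.12 in vehicle wells, and Mir10b of HoxD 3.44 ± 0.07 and 3.31 ± 0.09 in the same order (SD, n = 3 each). Mir615 of HoxC, whose microRNA has another seed and is not shown, averaged 6.13 ± 0.15 in 4OHT wells and 5.98 ± 0.15 in vehicle wells (SD, n = 3 each). These microRNA genes lay below the background, and labelling primed with a poly(T) oligomer, as the protocol gives it, does not read mature microRNAs.

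Hox proteins bind DNA with partners of the TALE homeodomain family, the Pbx, Meis and Pknox (Prep) proteins. 9 of 10 on a cofactor list were measured and all lay above the background. 2 of the 9 were lower, against 6.62% of all genes, and none was higher, against 5.38%. Among the 14465 genes above the background, 1377 were lower and 1093 higher. The median log2 fold change of the 9 was -0.08. The lists here were chosen with earlier results of these data known. Pbxip1, which is no TALE protein but binds Pbx and restrains it, was at 10.73, 10.73 and 10.76 in 4OHT wells and at 11.09, 11.23 and 11.17 in vehicle wells. It dropped by 0.42 in log2 units (SE 0.051, adjusted p = 0.00357 by limma), with no overlap. Pknox2, a TALE factor, was at 9.67, 9.66 and 9.72 in 4OHT wells and at 9.90, 9.94 and 9.98 in vehicle wells, and fell by 0.26 (adjusted p = 0.0155). That call was lost without 4OHT replicate 1 (adjusted p = 0.0587), 4OHT replicate 2 (0.0691) or vehicle replicate 2 (0.0620). Meis1 and Meis2 averaged 11.17 ± 0.02 and 11.21 ± 0.0074 in 4OHT wells, against 11.03 ± 0.06 and 11.27 ± 0.0034 in vehicle wells (SD, n = 3 each), and neither passed (adjusted p = 0.121 and 0.412).

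Polycomb complexes keep Hox genes silent and trithorax proteins keep them active. Of 26 measured regulators of these kinds, 4 were higher, against 5.38% of all genes, and 1 lower, against 6.62%, at a median log2 fold change of -0.02. All 26 lay above the background, where 17.1% of genes were called in either direction, 1093 of 14465 higher and 1377 lower. Cbx7, a chromodomain subunit of Polycomb complex 1, was at 8.96, 8.81 and 8.87 in 4OHT wells and at 8.57, 8.55 and 8.54 in vehicle wells, a rise of 0.33 (SE 0.052, adjusted p = 0.00980 by limma). Suz12, a core subunit of Polycomb complex 2, rose by 0.23 (adjusted p = 0.0317), the methyltransferase gene Ezh1 by 0.20 (0.0360) and Kmt2d, a trithorax-type methyltransferase gene, by 0.35 (0.0370). Ezh2, the methyltransferase of dividing cells, was at 9.82, 9.88 and 9.85 in 4OHT wells and at 10.05, 10.00 and 10.03 in vehicle wells, and fell by 0.18 (adjusted p = 0.0408). The proliferation genes of the array fell in the same wells, by 0.78 to 1.51; their part in the value of Ezh2 was not tested. Of the 5 calls only that of Cbx7 held without each of the 6 arrays in turn. The calls of Ezh1 and Ezh2 held in none of the 6 fits on 5 arrays (adjusted p 0.0577 to 0.109 for Ezh1 and 0.0822 to 0.127 for Ezh2). Those of Suz12 and Kmt2d were kept only without 4OHT replicate 3 and lost without each other array (0.0709 to 0.109 for Suz12 and 0.0801 to 0.121 for Kmt2d). That of Ezh2 was also lost with median centring (0.0553).

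Retinoic acid and the Cdx factors set Hox expression in the embryo. Of 15 measured genes of such upstream signals, 4 were lower, against 6.62% of all genes, and none higher, at a median log2 fold change of -0.07. 13 of the 15 lay above the background, where 1377 of 14465 genes were lower. Aldh1a2, which makes retinoic acid, was at 12.44, 12.45 and 12.51 in 4OHT wells and at 12.86, 12.86 and 12.76 in vehicle wells, and fell by 0.36 (SE 0.049, adjusted p = 0.00551 by limma). Aldh1a2 is also strongly expressed in mesothelium, of whose 4 markers 1 was higher and 2 lower, as given above. The part of mesothelial cells in the value of Aldh1a2 was not tested. Egr2, a regulator of hindbrain Hox genes, fell by 0.30 (adjusted p = 0.0104). Aldh1a3, another retinoic acid synthase gene, fell by 0.26 (adjusted p = 0.0318) and Cyp26b1, which degrades retinoic acid, by 0.44 (0.0303). The call of Aldh1a3 was lost without any array but 4OHT replicate 3 (adjusted p 0.0720 to 0.113), and that of Cyp26b1 without any but vehicle replicate 1 (0.0535 to 0.0879). Rarb, a retinoic acid receptor gene that retinoic acid induces, had a log2 fold change of 0.28 (95% CI from 0.09 to 0.47, adjusted p = 0.0673).

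**Figure D4:**
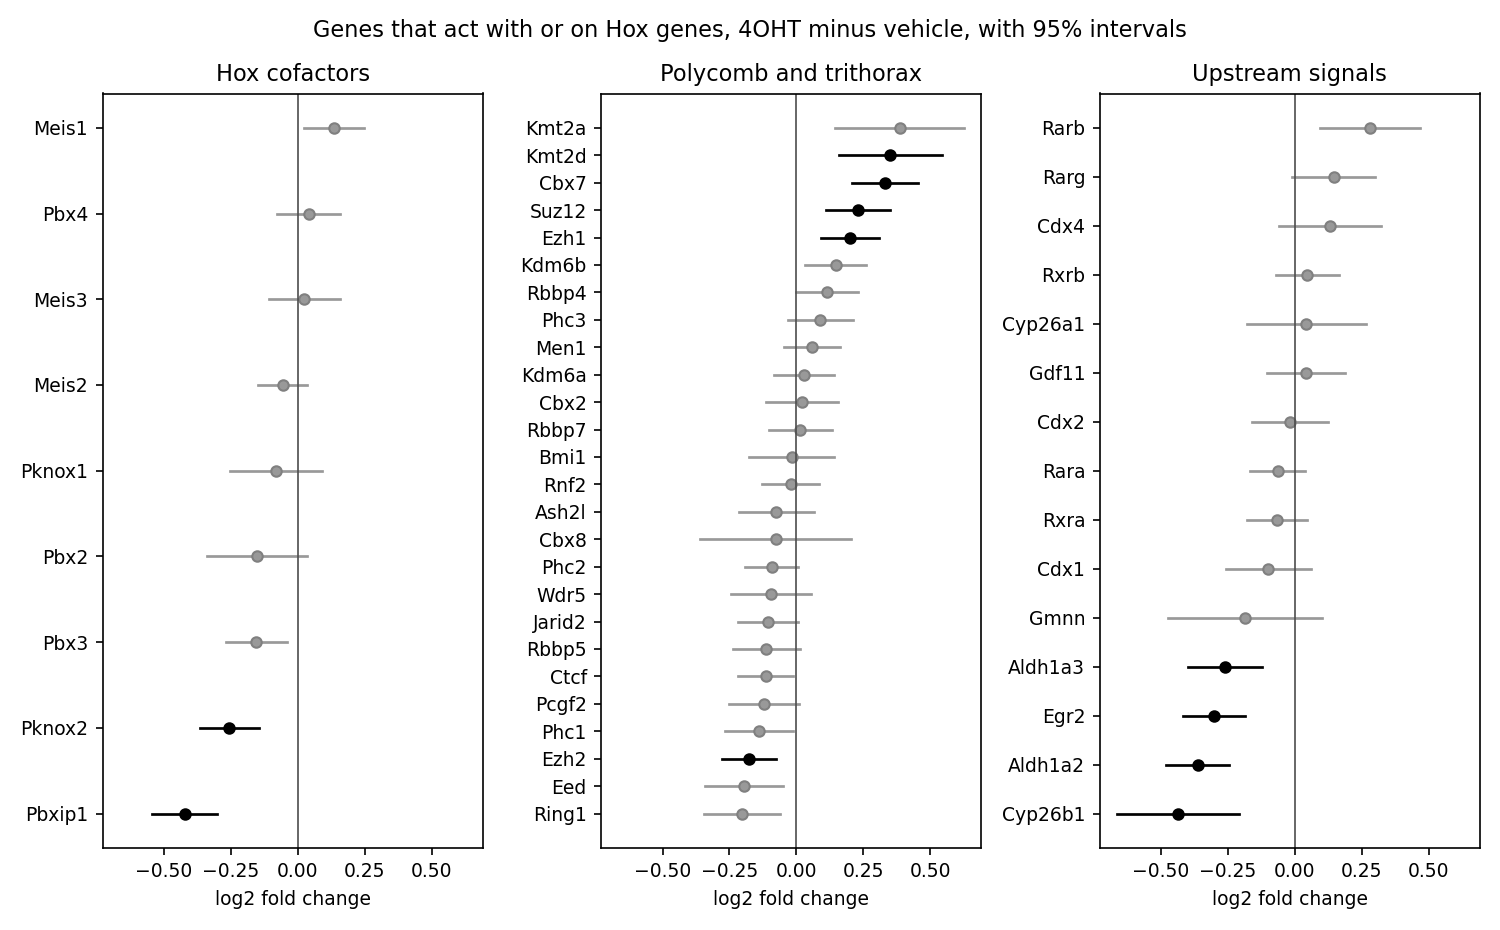
Log2 fold change, 4OHT minus vehicle, with 95% intervals from limma (3 arrays a group), of 9 genes on the Hox cofactor list, 26 Polycomb and trithorax regulators and 15 genes of upstream signals, sorted from high to low; black marks genes at an adjusted p under 0.05. The cofactor list holds 2 genes lower, the regulators 4 higher and 1 lower, and the upstream signals 4 lower.

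Genes beside the clusters and other regional factors were read in the same way. Of 22 measured neighbours on a list, 3 were lower, against 6.62% of all genes, and none higher, at a median log2 fold change of -0.06. 19 of the 22 lay above the background, where 1377 of 14465 genes were lower. Cbx5, the HP1-alpha gene beyond HoxC, fell by 0.25 (adjusted p = 0.0215), Jazf1, on the chromosome of HoxA, by 0.28 (0.0262) and Calcoco2, near HoxB and below the background, by 0.26 (0.0153). Each call was lost without 4OHT replicate 1, 4OHT replicate 2 or vehicle replicate 2 (adjusted p 0.0502 to 0.0883), that of Calcoco2 also with trended, robust variances (0.0692), that of Cbx5 without vehicle replicate 1 (0.0564) and that of Jazf1 without any array (0.0547 to 0.0883). Of 37 measured regional transcription factors of mesenchyme, 3 were lower and none higher, at a median of -0.06; this share of lower genes is close to the 6.62% of all genes. Foxc1, a forkhead gene of mesoderm, was at 9.95, 9.94 and 9.91 in 4OHT wells and at 10.45, 10.59 and 10.52 in vehicle wells, and fell by 0.59 (SE 0.051, adjusted p = 0.00105 by limma). Its paralog Foxc2 fell by 0.38 (adjusted p = 0.00488) and the homeobox gene Prrx2 by 0.34 (0.00561). Tbx4 and Tbx5, T-box genes of lung mesenchyme, had log2 fold changes of 0.10 (95% CI from -0.03 to 0.22) and 0.15 (95% CI from 0.04 to 0.26), and neither passed (adjusted p = 0.289 and 0.0837).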

How the data were processed

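RNA of 6 wells, 100 ng for each labelling reaction, was measured on single-colour Affymetrix arrays, per the labels' protocols. The deposited table holds log2 expression per probe set, and per the submitters' processing notes the authors used oligo, RMA and limma, with no versions given. RMA corrects background, quantile normalizes the arrays and summarizes probes on the log2 scale, so a shift of all genes would be removed. For the probe sets no genome build is given in the sources used here.

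The platform annotation gave 1 symbol for 23521 of 41345 probe sets, several for 1814 and none for 16010. Only those with 1 symbol were used, and the 7 probe sets with a Hox symbol among several were left out. The probe set of highest mean stood for each of 22180 genes. Groups were compared with limma 3.58.1 in R 4.3.3 (lmFit and eBayes, no trend, not robust, two-sided), with Benjamini-Hochberg adjustment over all genes and a threshold of 0.05. Log2 fold changes are 4OHT minus vehicle, and no filter was set on dim genes. Tables were made in Python 3.11.15.

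The Hox genes and all lists were chosen with earlier results of these data known. Values by array are given for every Hox gene called, for the 6 of highest mean among those not called, and for a few others named after their values were seen. Up to 6 called members of smallest p were named from each other list, or the 2 of smallest p where none was called. Alternatives tried were a block for the replicate number, median centring, quantile normalization applied again, a trended and robust estimate, array weights, averaging the probe sets of a gene, genes above the receptor background alone, all probe sets, a threshold of 0.01 and leaving out each array; lists were recomputed under the block, both scalings and the left-out arrays.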

Additional observations from a re-analysis of the deposited data

How the results depend on the processing

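Of 36 Hox genes, 2 were lower and none higher; none was lower under the replicate block or at a threshold of 0.01, and 0 to 2 were lower without each array in turn (0 without 4OHT replicate 1 or 2 or vehicle replicate 1 or 2). 1 was higher with quantile normalization applied again or a trended and robust estimate, and 2 among genes above the receptor background alone, where Hox genes below it got no value. The 99th percentile left 14 Hox genes above background, against 25. Over all genes, 1193 were higher and 1469 lower; the counts were 1406 and 1288 with median centring, where higher calls outnumber lower ones, 648 and 920 under the replicate block, 1828 and 2295 with a trended and robust estimate, 395 and 615 at a threshold of 0.01, and 486 to 986 and 734 to 1340 without each array in turn. Under the block 1 Polycomb or trithorax regulator was higher and 0 lower, and 0 cluster neighbours were lower; with median centring 0 regulators were lower. Without each array in turn 1 to 2 cofactors, 0 regulators, 2 to 3 upstream genes, 0 to 3 neighbours and 3 to 5 regional factors were lower, and 1 to 4 regulators and 0 to 1 upstream genes, cluster RNAs and regional factors were higher. Nothing in the labels says that equal replicate numbers pair the wells. The deviations of same-numbered wells from their group means correlated at 0.062, -0.024 and 0.043. Those of wells with unlike numbers correlated at -0.076 to 0.031. For 4OHT replicates 1 and 3 the best match was the vehicle well of the same number, and for 4OHT replicate 2 it was not. With 3 wells a group, these values cannot decide whether the wells were paired. Under the block Hoxa3 had an adjusted p of 0.0717 and Hoxc13 of 0.0994. The sign of the change turned for 12 Hox genes, 26 times in all, each with a change of 0.08 or less: with median centring for Hoxa9 (0.016), Hoxc6 (0.0073) and Hoxd11 (0.0054), with quantile normalization applied again for Hoxa6 (0.0015) and Hoxc6 (0.017), with array weights for Hoxc4 (-0.045) and Hoxd9 (0.012). Leaving out each array in turn gave changes on both sides of 0 for Hoxa4 (-0.109 to 0.018), Hoxa9 (-0.043 to 0.043), Hoxb2 (-0.031 to 0.144), Hoxc4 (-0.096 to 0.088), Hoxc5 (-0.044 to 0.123), Hoxc6 (-0.027 to 0.0063), Hoxc12 (-0.016 to 0.138), Hoxd3 (-0.054 to 0.087), Hoxd8 (-0.044 to 0.177), Hoxd9 (-0.154 to 0.063) and Hoxd11 (-0.059 to 0.012). The cause was not tested. Signal near the receptor background limits what can be read for the 11 Hox genes below it.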
